A study of Homo sapiens with 12 samples.

Results

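Interferon-stimulated genes are the genes that cells switch on when interferon reaches them. A set of 44 of them was followed in HEL cells, a human erythroleukemia line with a mutated JAK2 kinase, after CRISPR-Cas9 targeting of KDM4C. The genes were listed by name for their function, with no threshold on the values, although earlier results of these data were known when the list was drawn up. They make up 44 of the 38551 genes read from the count table. A total of 36 passed the filter on low values, which asked for a counts-per-million value (CPM) of at least 0.5 in 4 or more of the 12 libraries, and 14271 genes passed it in all.

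RNA sequencing was performed on HEL cells that express the Cas9 nuclease. Cells were transduced with lentivirus carrying KDM4C guide RNA sg2, KDM4C guide RNA sg3 or, as control, a guide against luciferase (sgLuc), with 4 libraries in each group. KDM4C is a demethylase of trimethylated histone lysines. All 3 groups carried Cas9, grew with blasticidin at 15 µg/mL and went through puromycin at 1.5 µg/mL over 11 days, and the columns of the count table name the vehicle DMSO for all 12 libraries. Each group is a transduced and selected population and not a single clone, so edited and unedited cells were sequenced together. The 4 libraries of a group are replicates of the vehicle treatment, and whether they come from separate transductions is not stated. The p-values below reflect the spread among these libraries, part of which may be technical. They treat the 4 libraries of a group as independent, although the libraries of each group were alike in pairs, as given below. In bulk RNA, a change in the share of cells that express a gene and a change in RNA per cell cannot be told apart.

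The guides are shown because they define the groups. Each had 1 exact match on the main chromosomes of hg38, both inside KDM4C, sg2 at chr9:7011804-7011823 on the plus strand and sg3 at chr9:6984259-6984278 on the minus strand. Capitals mark the bases of the genome next to the match that Cas9 reads, and the guide itself is in lower case.
sg2: gcaagagtataatgcaacagTGG
sg3: ggtcatctgtgactgagtcgGGG

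Type I interferons bind a receptor pair on the cell surface, and the kinases JAK1 and TYK2 then phosphorylate STAT2. It joins IRF9 in a complex that binds the interferon-stimulated response element (ISRE) in the promoters of the genes described here. Their products block viral entry, sense or degrade foreign RNA, tag proteins with the ubiquitin-like ISG15 and reshape nuclear bodies, and in blood cells a part of them is also expressed without any interferon added.

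Libraries held between 10031809 and 78966125 counts, and interferon-stimulated genes took between 0.164% and 0.185% of them. KDM4C mRNA measured 40.5, 43.0, 49.8 and 55.1 CPM in sg2 libraries 1 to 4, 59.6, 60.8, 63.4 and 63.2 CPM in sg3 libraries 1 to 4, and 67.7, 70.2, 68.1 and 71.1 CPM in control libraries 1 to 4. Every KDM4C-targeted library lay below every control library, and the log2 fold change of both guides averaged was -0.37 ± 0.06 (SE, adjusted p = 9.27e-05). For sg2 it was -0.57 (adjusted p = 2.6e-05) and for sg3 -0.17 (adjusted p = 0.0543), so KDM4C mRNA was called lower with sg2 and not with sg3. Transcripts with a small insertion or deletion are still counted, so how many alleles were edited is not measured here. On the first principal component of all genes tested (36.6% of the variance), sg2 libraries 1 and 2 lay at -3.39 and -0.391, the other 6 KDM4C-targeted libraries between 12.7 and 23.5, and the controls between -28.5 and -23.2. Results are therefore also given without sg2 libraries 1 and 2. All 10 erythroid and megakaryocyte markers of HEL cells passed the filter. Of 10 markers of other cells 2 did, LYZ and COL1A1, both called higher with KDM4C guides, and the summed level of these 10 markers was 44.9 to 48.2 CPM with sg2, 45.3 to 52.8 CPM with sg3 and 35.3 to 44.6 CPM in control. Their part in the results was not tested.

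With both guides averaged against control, 9 of the 36 interferon-stimulated genes tested were called higher and 2 lower, and 25 were not called. The genes called higher were the transcription factor STAT2, all 4 membrane factors (IFITM1, IFITM2, IFITM3 and BST2), the RNA-binding protein IFIT2, the RNA sensor IFIH1 and the nuclear body proteins SP100 and PML. The genes called lower were PARP9 and TRIM25. A call means an adjusted p below 0.05 in the quasi-likelihood test of edgeR, adjusted over all genes tested by the Benjamini-Hochberg method. The share called was 30.6%, and over all genes tested it was 43.0%, so calls were no more frequent among interferon-stimulated genes than elsewhere. Calls in the higher direction made up 25.0%, near the 21.5% of all genes. Calls in the lower direction made up 5.56%, against 21.4% of all genes. The count of 2 lower was 1 without sg3 library 2 or 3 or control library 1, 2 or 3, and 4 without sg2 libraries 1 and 2, while the count of 9 higher stayed between 8 and 9 in all fits that left out 1 library.

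**Figure D1:**
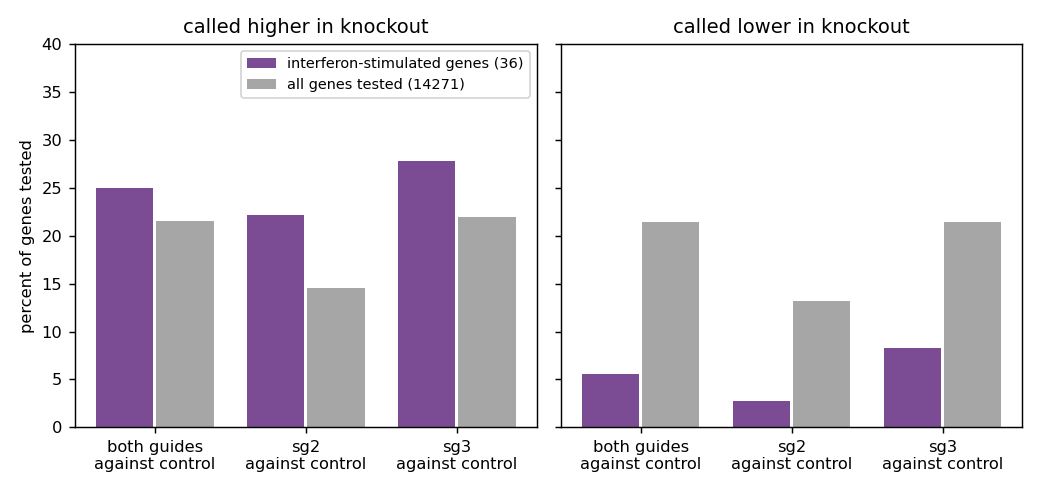
Percent of genes called higher (left) and lower (right) by edgeR's quasi-likelihood test, on the vertical axis, for both guides averaged, sg2 and sg3, each against control; purple bars are the 36 interferon-stimulated genes tested and grey bars all 14271 genes tested. The bars for interferon-stimulated genes stand at 25.0%, 22.2% and 27.8% for higher calls and at 5.56%, 2.78% and 8.33% for lower calls.

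Changes were small. The log2 fold changes of the 36 genes lay between -0.26 and 0.59, 24 were above 0 and 12 below, and their median was 0.077, where the median of all genes tested was -0.0008. The median size of the change, sign aside, was 0.131, below the 0.158 of all genes tested. Library by library, the median log2 level relative to the control mean was 0.072, 0.072, 0.058 and 0.05 in sg2 libraries 1 to 4, 0.092, 0.102, 0.073 and 0.099 in sg3 libraries 1 to 4, and 0.005, -0.004, -0.014 and -0.003 in control libraries 1 to 4. All 8 KDM4C-targeted libraries thus lay above all 4 controls, and sg2 libraries 1 and 2 lay above sg2 libraries 3 and 4. The control values are drawn towards 0, since the mean of the same 4 libraries was subtracted. Over all genes tested, the medians of the 12 libraries lay between -0.003 and 0.007. Summed over the genes, the level was 1690 to 1790 CPM with sg2, 1740 to 1820 CPM with sg3 and 1660 to 1680 CPM in control.

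**Figure D2:**
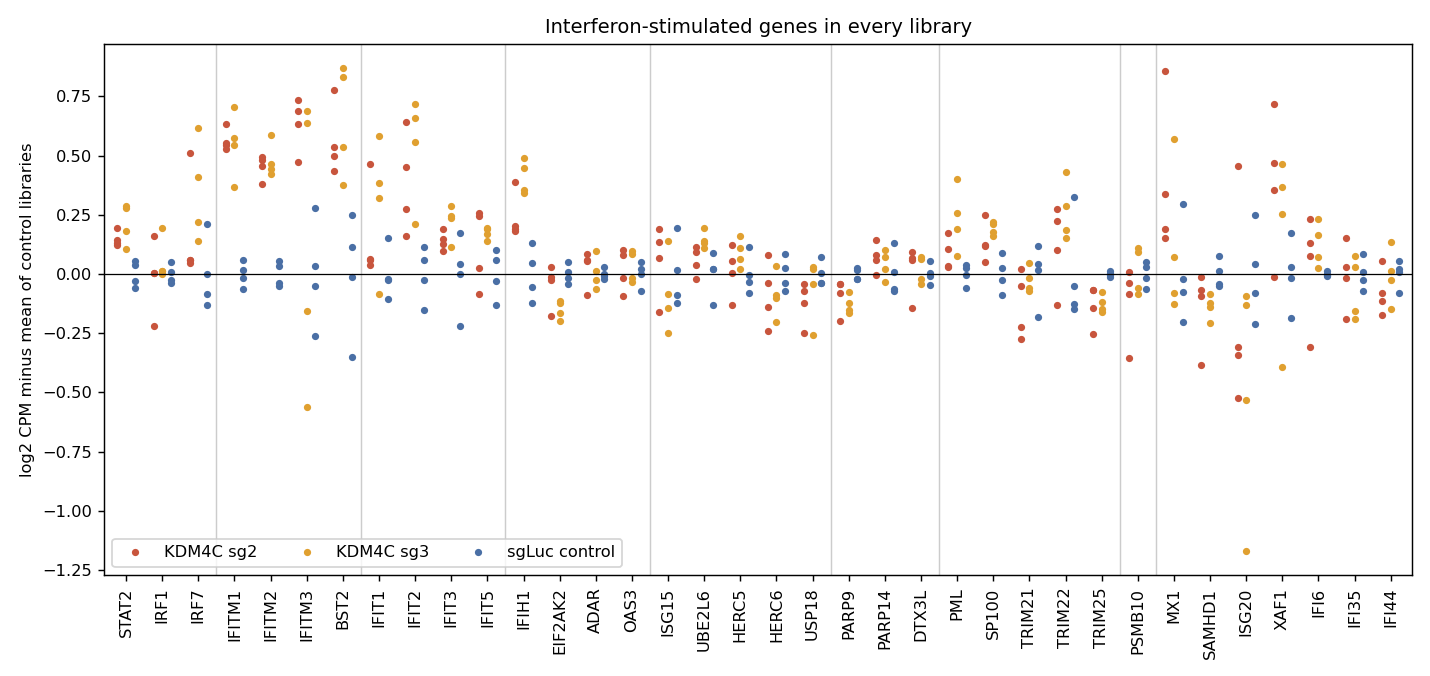
Log2 CPM of each library minus the mean of the 4 control libraries (vertical axis) for the 36 interferon-stimulated genes tested (horizontal axis), with sg2 in red, sg3 in orange and control in blue; grey lines separate groups of genes by role. IFITM1, IFITM2 and IFIH1 have all 8 KDM4C-targeted libraries above the controls, while most other genes scatter around 0 in all 3 groups.

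Among the transcription factors, STAT2, a subunit of the complex that binds the ISRE, rose. It measured 84.0, 81.1, 80.4 and 80.0 CPM in sg2 libraries 1 to 4, 79.2, 83.4, 89.3 and 89.6 CPM in sg3 libraries 1 to 4, and 75.4, 71.9, 70.4 and 76.2 CPM in control libraries 1 to 4. The lowest KDM4C-targeted library stood above the highest control, and the log2 fold change was 0.18 ± 0.04 (adjusted p = 0.00121), with 0.15 for sg2 (adjusted p = 0.0211) and 0.22 for sg3 (adjusted p = 0.000917). The sg2 call did not hold in fits that left out sg2 libraries 1 and 2 (0.12, adjusted p = 0.136), sg2 library 1 (0.0669), control library 2 (0.0811) or control library 3 (0.0744).

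IRF1, an activator that binds related promoter elements and responds most to interferon gamma, was not called. Its level was 28.4, 24.3, 31.7 and 28.4 CPM in sg2 libraries 1 to 4, 28.3, 28.6, 28.5 and 32.4 CPM in sg3 libraries 1 to 4, and 27.6, 29.4, 27.9 and 28.5 CPM in control libraries 1 to 4. The 3 groups overlapped and the log2 fold change was 0.01 ± 0.06 (adjusted p = 0.911). IRF7, which amplifies the production of interferon, stood near the filter, with 1.30, 1.28, 1.30 and 1.80 CPM in sg2 libraries 1 to 4, 1.37, 1.46, 1.68 and 1.94 CPM in sg3 libraries 1 to 4, and 1.45, 1.24, 1.17 and 1.12 CPM in control libraries 1 to 4. Its groups overlapped too (0.25 ± 0.16, adjusted p = 0.228). IRF9, the DNA-binding subunit of the complex with STAT2, had 0 counts in all 12 libraries, which allows up to 3 counts in each, or 0.038 CPM in the deepest and 0.299 CPM in the shallowest library.

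The 8 genes below the filter were IRF9, IFI27 (1 count over the 12 libraries), PSMB8 (3), PSMB9 (5), OAS2 (11), IFI44L (13), OASL (13) and OAS1 (52). Of the 36 that passed, 35 met the minimum of 0.5 CPM in all 12 libraries. In the count table, IRF9, IRF7 and IFI27 are annotated on their chromosome and on 1 extra contig, an alternate copy of the same region, and PSMB8 and PSMB9 on 7 extra contigs each. Of these 5 genes 4 did not pass the filter, while 35 of the 39 genes annotated on 1 chromosome alone did. Over all protein-coding genes, 27.5% of 1119 with such extra contigs passed the filter, against 64.8% of 17799 annotated on 1 chromosome only, and the median total count was 2 against 2491. Low counts of IRF9, IFI27, PSMB8 and PSMB9 can therefore not be read as low expression. The part of the extra contigs in these counts was not tested.

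The 4 membrane factors were the only role group in which every gene was called higher, where 21.5% of all genes tested were. Their log2 fold changes lay between 0.44 and 0.59 with a median of 0.52, and the call of IFITM3 was lost in part of the alternatives, as given below. IFITM1, IFITM2 and IFITM3 are short membrane proteins that hinder the fusion of virus and cell membranes. They lie side by side on chromosome 11 of hg38, IFITM2 at chr11:308107-309410 and IFITM1 at chr11:314040-315272 on the plus strand, and IFITM3 at chr11:319676-320860 on the minus strand. Their coding sequences are alike, so the split of reads between them is uncertain and their calls may not be independent of each other.

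IFITM2 was the interferon-stimulated gene with the highest level per length in control, 175 CPM per kilobase of exon. Its level was 178, 180.0, 166 and 175 CPM in sg2 libraries 1 to 4, 176, 192, 171 and 174 CPM in sg3 libraries 1 to 4, and 131, 133, 123 and 124 CPM in control libraries 1 to 4. The groups did not overlap, and the log2 fold change was 0.47 ± 0.04 (adjusted p = 2.27e-07), with 0.45 for sg2 and 0.48 for sg3. IFITM1 followed at 53.3 CPM per kilobase in control, with 51.9, 52.2, 55.3 and 51.4 CPM in sg2 libraries 1 to 4, 52.0, 58.1, 53.0 and 46.0 CPM in sg3 libraries 1 to 4, and 34.1, 35.1, 36.1 and 37.1 CPM in control libraries 1 to 4. Again no KDM4C-targeted library reached down to a control (0.57 ± 0.05, adjusted p = 5.02e-07). Both genes were called for sg2 alone and for sg3 alone in all 21 alternative settings of each guide.

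IFITM3 behaved less evenly. It measured 11.9, 13.8, 14.3 and 13.3 CPM in sg2 libraries 1 to 4, 13.3, 13.8, 7.66 and 5.76 CPM in sg3 libraries 1 to 4, and 8.73, 8.24, 10.4 and 7.11 CPM in control libraries 1 to 4. All sg2 libraries and sg3 libraries 1 and 2 exceeded every control, whereas sg3 library 3 fell among the controls and sg3 library 4 below them. The average was called (0.44 ± 0.17, adjusted p = 0.0451), as was sg2 (0.63, adjusted p = 0.0232), and sg3 was not (0.25, adjusted p = 0.325). The sg2 call was lost in 6 of 21 alternatives, with DESeq2 (adjusted p = 0.0571), without sg2 libraries 1 and 2 (0.0795) and without sg2 library 2 or 3 or control library 2 or 4 (0.0517 to 0.0691). Without sg3 library 4, sg3 was called (0.42, adjusted p = 0.0426). The test of sg3 against sg2 did not separate the guides (-0.38 ± 0.20, adjusted p = 0.379). The call of the average was lost in 10 of 20 alternative settings, among them DESeq2 (adjusted p = 0.114), the fit without sg2 libraries 1 and 2 (0.0802), and the fits without sg2 library 2, 3 or 4, sg3 library 1 or 2, or control library 1, 2 or 4 (between 0.0637 and 0.128).

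BST2, or tetherin, which holds budding virus at the cell surface and lies at chr19:17402939-17405630 on the minus strand, had the largest log2 fold change of the 36 genes at a low level. It measured 1.87, 2.01, 2.39 and 1.96 CPM in sg2 libraries 1 to 4, 1.79, 2.56, 2.49 and 2.02 CPM in sg3 libraries 1 to 4, and 1.64, 1.48, 1.05 and 1.35 CPM in control libraries 1 to 4. No values overlapped, although sg3 library 1 and control library 1 came close. The log2 fold change was 0.59 ± 0.15 (adjusted p = 0.00517), with 0.66 for sg3 (adjusted p = 0.00608) and 0.52 for sg2 (adjusted p = 0.0404). The sg2 call was lost in 11 of 21 alternatives, with adjusted p up to 0.107, including the fit without sg2 libraries 1 and 2 (0.0934) and the fits without any 1 of the 4 sg2 libraries (0.0512 to 0.099) or without control library 2, 3 or 4 (0.063 to 0.0937).

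IFITM1 and BST2 were the 2 interferon-stimulated genes called with a change of at least 0.5 on the log2 scale, a size that 8.74% of all genes tested reached with a call. Of the 5 other tested genes within 100 kilobases of the IFITM genes, SIGIRR rose (0.24), PSMD13 fell (-0.16), and RIC8A (-0.08), SIRT3 (0.09) and PGGHG (0.16) were not called.

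**Figure D3:**
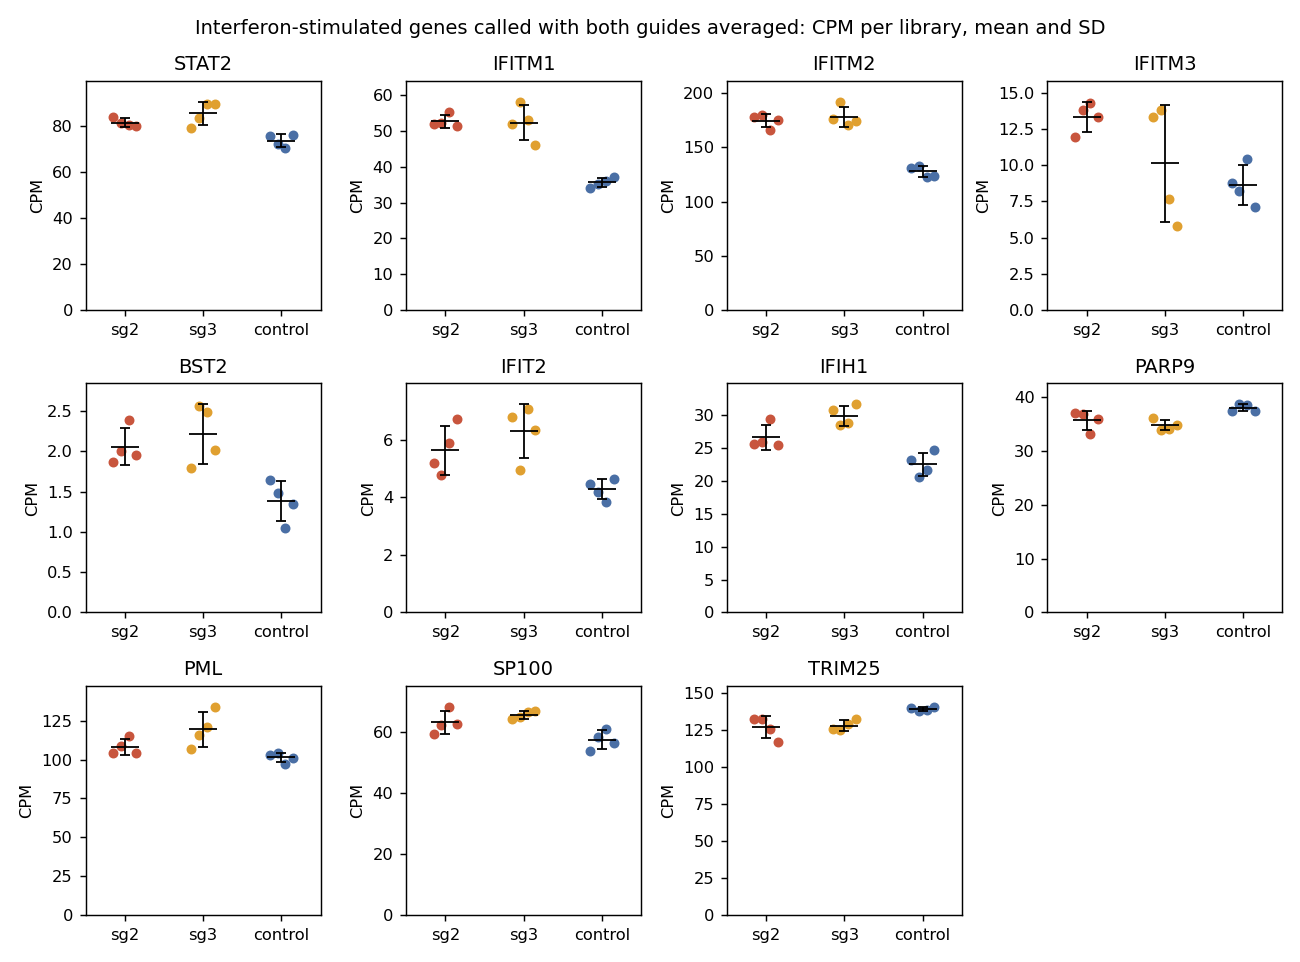
CPM per library (points, vertical axis from 0) for the 11 interferon-stimulated genes called with both guides averaged, in sg2 (red), sg3 (orange) and control (blue); horizontal bars are the mean and error bars the SD of 4 libraries. IFITM1 and IFITM2 stand clear of control with both guides, IFITM3 with sg3 spreads from 5.76 to 13.8 CPM, and PARP9 and TRIM25 lie below control.

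The IFIT proteins bind RNA, and their genes form a cluster on chromosome 10. IFIT2 (chr10:89302046-89309271, plus strand) rose. It measured 5.19, 4.79, 5.88 and 6.73 CPM in sg2 libraries 1 to 4, 6.81, 4.97, 7.09 and 6.33 CPM in sg3 libraries 1 to 4, and 4.46, 4.20, 3.85 and 4.64 CPM in control libraries 1 to 4. The groups did not overlap, and the log2 fold change was 0.46 ± 0.11 (adjusted p = 0.00353). The call for sg3 (0.56, adjusted p = 0.00239) held in all 21 alternatives, and the call for sg2 (0.37, adjusted p = 0.0494) was lost in 15 of 21, with adjusted p up to 0.164; these included RLE size factors (0.0512), DESeq2 (0.0522), limma-voom (0.0618) and the fits without sg2 library 1, 3 or 4, sg3 library 1, 3 or 4 or any 1 of the 4 control libraries (0.0521 to 0.164).

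The other 3 IFIT genes were not called with both guides averaged. IFIT3 averaged 12.6 ± 0.354 CPM with sg2, 13.3 ± 0.685 CPM with sg3 and 11.5 ± 1.28 CPM in control (SD, n = 4 each), a log2 fold change of 0.16 ± 0.07 (adjusted p = 0.068). It was called for sg3 alone (0.20, adjusted p = 0.048), a call that 17 of 21 alternatives lost. For IFIT1, the founding member of the family, the estimate was 0.25 ± 0.14 (adjusted p = 0.174) at 2.14 CPM in control, and for IFIT5 it was 0.14 ± 0.08 (adjusted p = 0.186).

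Of the genes that sense or edit double-stranded RNA, IFIH1, also known as MDA5, rose. It lies at chr2:162267074-162318684 on the minus strand. The level was 25.6, 25.9, 29.4 and 25.4 CPM in sg2 libraries 1 to 4, 30.7, 28.5, 28.7 and 31.6 CPM in sg3 libraries 1 to 4, and 23.2, 20.6, 21.6 and 24.6 CPM in control libraries 1 to 4. All KDM4C-targeted libraries exceeded all controls, and the log2 fold change was 0.33 ± 0.06 (adjusted p = 0.000222), with 0.25 for sg2 (adjusted p = 0.0117) and 0.42 for sg3 (adjusted p = 9.19e-05). The sg2 call was lost without control library 2 (0.19, adjusted p = 0.0657). The difference between the guides was 0.17 ± 0.07 (adjusted p = 0.266).

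EIF2AK2, the kinase PKR that halts translation when it meets double-stranded RNA, pointed the other way without a call. It averaged 123 ± 7.5 CPM with sg2, 114 ± 3.12 CPM with sg3 and 127 ± 3.39 CPM in control (SD, n = 4 each), and the log2 fold change was -0.09 ± 0.04 (adjusted p = 0.0503). It was called lower for sg3 (-0.15, adjusted p = 0.0109) in all 21 alternatives, and not for sg2 (-0.04, adjusted p = 0.527). With both guides averaged, 7 of 20 alternatives called it, DESeq2 (-0.10, adjusted p = 0.043) and the fit without sg2 libraries 1 and 2 (-0.13, adjusted p = 0.0122) among them.

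ADAR, which edits adenosine to inosine in double-stranded RNA, was among the 5 genes with the highest level per length in control, at 35.9 CPM per kilobase. It measured 407, 401, 399 and 362 CPM in sg2 libraries 1 to 4, 368, 378, 388 and 412 CPM in sg3 libraries 1 to 4, and 385, 382, 378 and 392 CPM in control libraries 1 to 4. The groups overlapped fully (0.02 ± 0.04, adjusted p = 0.727). The exons of ADAR share 24.8% of their bases with those of CHRNB2, which had 49 counts in all, so reads there may not have been told apart. OAS3, which makes short chains of adenylate when it meets double-stranded RNA, was not called either (0.03 ± 0.04, adjusted p = 0.656). Its relatives OAS1, OAS2 and OASL, all on chromosome 12, totalled 52, 11 and 13 counts over the 12 libraries and were not tested, although OAS3 had 12921.

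No gene of the ISG15 conjugation pathway was called with both guides averaged. ISG15, the ubiquitin-like modifier itself, measured 11.4, 11.8, 9.27 and 10.9 CPM in sg2 libraries 1 to 4, 11.4, 9.79, 9.39 and 8.71 CPM in sg3 libraries 1 to 4, and 9.74, 10.5, 11.9 and 9.51 CPM in control libraries 1 to 4. These values were interleaved, and the log2 fold change was -0.001 ± 0.09 (adjusted p = 0.992). UBE2L6, the enzyme that carries ISG15 to its ligases and the third of the genes by level per length in control (50.8 CPM per kilobase), measured 93.8, 88.9, 85.5 and 92.4 CPM in sg2 libraries 1 to 4, 95.5, 99.1, 94.9 and 93.6 CPM in sg3 libraries 1 to 4, and 88.0, 87.8, 92.2 and 79.2 CPM in control libraries 1 to 4. The sg3 libraries exceeded the controls and the sg2 libraries did not separate from them. UBE2L6 was called for sg3 (0.14, adjusted p = 0.02), though not without sg3 library 2 (adjusted p = 0.0616) or control library 4 (0.0584), and not for the average (0.10 ± 0.04, adjusted p = 0.0592). HERC5, the main ISG15 ligase in human cells (0.06 ± 0.05), HERC6, which has that role in mouse (-0.08 ± 0.07), and USP18, which removes ISG15 and dampens the interferon receptor (-0.08 ± 0.07), had adjusted p between 0.351 and 0.393.

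Of the ADP-ribosylation genes, PARP9 fell with both guides averaged. PARP9 forms a complex with the ubiquitin ligase DTX3L and lies at chr3:122527924-122564784 on the minus strand. It measured 36.9, 36.8, 33.1 and 35.9 CPM in sg2 libraries 1 to 4, 36.0, 33.9, 34.1 and 34.8 CPM in sg3 libraries 1 to 4, and 37.4, 38.6, 38.4 and 37.4 CPM in control libraries 1 to 4. Every KDM4C-targeted library was below every control, by a small margin in sg2 libraries 1 and 2, and the log2 fold change was -0.11 ± 0.04 (adjusted p = 0.0357). It was called for sg3 (-0.13, adjusted p = 0.0293) and not for sg2 (-0.08, adjusted p = 0.187). The sg3 call was lost in 6 of 21 alternatives, with upper-quartile scaling (0.0588), with no filter on low counts (0.0811) and without sg3 library 2 or 3 or control library 2 or 3 (0.0538 to 0.0813). The call of the average was lost in 9 of 20 alternatives, DESeq2 (adjusted p = 0.0502), upper-quartile scaling (0.0605), the fit with no filter on low counts (0.0914) and the fits without sg3 library 2 or 3 or control library 1, 2 or 3 (0.0516 to 0.107) among them. Its exons share 44.9% of their bases with those of the noncoding gene LOC105374071, which had 6 counts in all, so reads there may not have been told apart. DTX3L, which starts beside PARP9 on the other strand (0.02 ± 0.04, adjusted p = 0.719), and PARP14, a mono-ADP-ribosyltransferase (0.06 ± 0.04, adjusted p = 0.305), were not called, and their difference from PARP9 was not tested.

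Among nuclear body and TRIM proteins, SP100 and PML, which together build the PML nuclear bodies, rose. SP100 (chr2:230416156-230545606, plus strand) measured 59.6, 62.5, 68.4 and 62.6 CPM in sg2 libraries 1 to 4, 64.3, 65.1, 66.6 and 66.9 CPM in sg3 libraries 1 to 4, and 54.0, 58.5, 61.2 and 56.6 CPM in control libraries 1 to 4. Only sg2 library 1 lay within the range of the controls, and the log2 fold change was 0.16 ± 0.04 (adjusted p = 0.00447). The call held for sg3 (0.19, adjusted p = 0.00363) in all 21 alternatives, and for sg2 (0.13, adjusted p = 0.0487) it was lost in 15 of 21, with adjusted p up to 0.168. Those included RLE size factors (0.0557), DESeq2 (0.0618), the fit of sg2 and control alone (0.0716) and the fits without sg2 library 2, 3 or 4, any 1 of the 4 sg3 libraries or control library 1, 2 or 4 (0.0543 to 0.168).

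PML averaged 108 ± 5.23 CPM with sg2, 120.0 ± 11.4 CPM with sg3 and 102 ± 3.10 CPM in control (SD, n = 4 each). The average was called (0.16 ± 0.05, adjusted p = 0.0147), and so was sg3 (0.23, adjusted p = 0.00299), but sg2 was not (0.08, adjusted p = 0.294). The difference between the guides was 0.15 ± 0.06 (adjusted p = 0.253), and without control library 3 the call of the average was lost (0.13, adjusted p = 0.0617).

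TRIM25, a ubiquitin ligase that activates the RNA sensor RIG-I, fell. It lies at chr17:56887909-56914049 on the minus strand and measured 133, 133, 126 and 117 CPM in sg2 libraries 1 to 4, 126, 125, 129 and 133 CPM in sg3 libraries 1 to 4, and 140.0, 138, 139 and 141 CPM in control libraries 1 to 4. The groups did not overlap, and the log2 fold change was -0.13 ± 0.04 (adjusted p = 0.0086), equal in size for sg2 (-0.13, adjusted p = 0.0299) and sg3 (-0.13, adjusted p = 0.0214). The sg2 call was lost without sg2 library 3 or 4 or control library 1, 2 or 4 (adjusted p between 0.0513 and 0.0946), and the sg3 call without sg3 library 1 (0.0501) or 2 (0.0622). The antibody receptor TRIM21 (-0.08 ± 0.06, adjusted p = 0.31) and the ligase TRIM22 (0.22 ± 0.11, adjusted p = 0.108) were not called.

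The immunoproteasome is the form of the proteasome that cuts peptides for antigen presentation. Its subunit PSMB10 measured 19.4, 25.0, 23.4 and 24.2 CPM in sg2 libraries 1 to 4, 26.8, 26.5, 23.4 and 23.8 CPM in sg3 libraries 1 to 4, and 24.5, 25.4, 25.7 and 23.7 CPM in control libraries 1 to 4. The groups overlapped (-0.05 ± 0.06, adjusted p = 0.592), and its level in control was the fifth highest per length, 25.4 CPM per kilobase. PSMB8 and PSMB9 had 3 and 5 counts in all, with the reservation on extra contigs given above.

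None of the 7 tested genes among the other effectors was called. The antiviral GTPase MX1 (0.24 ± 0.20), the apoptosis factor XAF1 (0.30 ± 0.18) and the exonuclease ISG20 (-0.26 ± 0.23) had the largest estimates, all at 1.54 CPM or less in control and with adjusted p of 0.347, 0.185 and 0.393. SAMHD1, which depletes the nucleotides that retroviruses need, stood at -0.14 ± 0.07 (adjusted p = 0.102), with a call once sg2 libraries 1 and 2 were left out (-0.20, adjusted p = 0.0278). Its exons share 18.4% of their bases with those of TLDC2, which had 187 counts in all. IFI6, a small membrane protein, was among the most even in control (18.9 to 19.2 CPM) and ranged from 15.3 to 22.3 CPM with sg2 and from 19.4 to 22.4 CPM with sg3 (0.10 ± 0.07, adjusted p = 0.306). IFI35 (-0.01 ± 0.08) and IFI44 (-0.04 ± 0.06) stayed near 0, and IFI44L, the neighbour of IFI44 on chromosome 1, had 13 counts in all.

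Genes called higher were found at high and at low levels. The 5 genes with the highest level per length in control were IFITM2, IFITM1, UBE2L6, ADAR and PSMB10, of which the first 2 rose and the other 3 were not called. At the low end, BST2 and IFIT2 rose, at control levels of 1.38 and 1.26 CPM per kilobase, while MX1, ISG20, XAF1 and IFIT1 stood below 0.5 CPM per kilobase with SEs between 0.14 and 0.23.

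**Figure D4:**
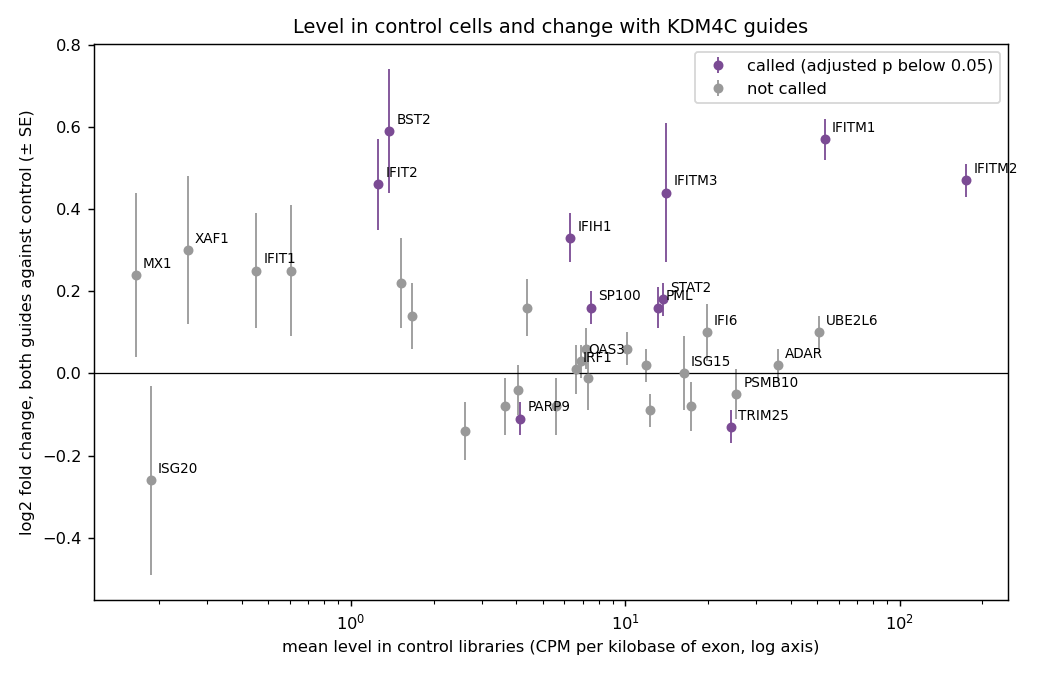
Mean level in control (horizontal axis, CPM per kilobase of exon, log axis) against the log2 fold change of both guides averaged (vertical axis, error bars are the SE) for the 36 interferon-stimulated genes tested, with called genes in purple and the others in grey. The called rises span 1.26 CPM per kilobase for IFIT2 to 175 CPM per kilobase for IFITM2, and the 3 widest error bars belong to ISG20, MX1 and XAF1, all below 0.5 CPM per kilobase.

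Each guide was then set against control on its own. With sg2, 8 genes were called higher and 1 lower of 36, or 25.0% where 27.6% of all genes were called, and the median log2 fold change was 0.064, or 0.041 without sg2 libraries 1 and 2. Higher calls were 22.2% against 14.5% of all genes and lower calls 2.78% against 13.2%. The count of 8 was 2 without control library 2 and 4 or 5 without any 1 of the 4 sg2 libraries or without control library 3 or 4, and it was 5 without sg2 libraries 1 and 2, so several of these calls stood close to the threshold. The 1 lower call, TRIM25, became 0 in 5 of the fits that leave out 1 library.

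With sg3, 10 genes were called higher and 3 lower, or 36.1% where 43.4% of all genes were called, and the median was 0.11. Higher calls were 27.8% against 21.9% of all genes and lower calls 8.33% against 21.4%. Without sg3 library 2 the median was 0.065 and 1 gene was called lower. Beside the genes called with both guides, sg3 called IFIT3, UBE2L6 and PML higher and PARP9 and EIF2AK2 lower, and sg2 called IFITM3 higher. Of these calls IFIT3, IFITM3, PARP9 and UBE2L6 were lost in part of the alternatives, as given above. Both guides were compared with the same 4 control libraries, so their calls are not independent of each other.

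The guides were also compared with each other. None of the 36 genes was called in sg3 against sg2 by edgeR, and 3 had an unadjusted p below 0.05, PML, IFIH1 and EIF2AK2. None was called in any of the 21 alternatives of this comparison either. The differences lay between -0.38 and 0.20 with a median of 0.051, which was 0.019 without sg2 library 3 and 0.031 without sg2 libraries 1 and 2, and the lowest adjusted p was 0.253. Over all genes 0.00701% were called, which is 1 gene, the receptor KIT. That count depended on the fit. Without sg2 library 4, 147 genes were called higher and 54 lower, with DESeq2 96 and 27, with no filter on low counts 194 and 173, with limma-voom 18 and 0 and with the replicate block 22 and 3. Leaving out other single libraries gave between 0 and 2 calls. A difference that misses the threshold does not show that the guides act alike, and the SE of the difference lay between 0.20 and 0.30 for IFITM3, IRF7, MX1, ISG20 and XAF1.

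A total of 7 of the 36 genes tested were called higher in the average and with each guide, where 13.2% of all genes were. They were STAT2, IFITM1, IFITM2, BST2, IFIT2, IFIH1 and SP100. Of these, IFITM1 and IFITM2 kept the call with each guide in all alternatives. The others lost the sg2 call in part of them, as given above. TRIM25 was called lower in all 3 comparisons, where 11.7% of all genes were, and lost the call of each guide in part of the alternatives. Every KDM4C-targeted library exceeded every control library in 6 of the 36 genes, the 7 above without SP100, and in 12.1% of all genes tested. PARP9 and TRIM25, 2 of the 36, lay wholly below control, as did 10.8% of all genes. Without sg2 libraries 1 and 2, the average called 8 interferon-stimulated genes higher and 4 lower, with EIF2AK2 and SAMHD1 beside PARP9 and TRIM25, where it called 43.8% of all genes tested.

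The promoters of these genes were searched for the ISRE, since its presence is what interferon responsiveness is usually tied to. Promoters of RefSeq (GRCh38.p14, 250 bases before to 50 after the start) matched 36 of the 44 genes. An ISRE was taken as TTTCNNTTTC or, on the other strand, GAAANNGAAA, with overlapping matches counted. It occurred in 3.65% of 27305 promoters, in 3.01% of the 10578 promoters of genes tested, and in 19 of 30 promoters of the tested interferon-stimulated genes (63.3%). Among those called higher with a promoter, 4 of 6 held it, among those called lower 0 of 2, and among those not called 15 of 22. The gamma-activated site, TTCNNNGAA on both strands, which can overlap the ends of an ISRE, occurred in 6.33% of promoters of genes tested and in 5 of the 30 (16.7%), and 33 promoters of genes tested held both elements.

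The stretches that hold the ISRE are shown for 4 genes called higher and, after them, for 4 genes that were not called. Each run is 60 bases of the strand of the gene before its start, and capitals mark ISRE matches that lie inside it. IFITM1 is read from chr11:313975-314034 on the plus strand, IFITM3 from chr11:320861-320920 on the minus strand, BST2 from chr19:17405720-17405779 on the minus strand and IFIH1 from chr2:162318685-162318744 on the minus strand. ISG15 is read from chr1:1013365-1013424 on the plus strand, IFI6 from chr1:27672251-27672310 on the minus strand, IFIT1 from chr10:89392495-89392554 on the plus strand and OAS3 from chr12:112938414-112938473 on the plus strand.
IFITM1: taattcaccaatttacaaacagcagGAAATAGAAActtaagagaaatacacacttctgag
IFITM3: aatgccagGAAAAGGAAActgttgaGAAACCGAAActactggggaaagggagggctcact
BST2: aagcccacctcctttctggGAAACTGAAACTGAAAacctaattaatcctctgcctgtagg
IFIH1: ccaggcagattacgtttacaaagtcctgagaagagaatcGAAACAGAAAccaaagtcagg
ISG15: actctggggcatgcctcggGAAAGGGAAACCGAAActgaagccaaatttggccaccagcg
IFI6: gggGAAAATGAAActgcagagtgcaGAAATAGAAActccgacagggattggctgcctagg
IFIT1: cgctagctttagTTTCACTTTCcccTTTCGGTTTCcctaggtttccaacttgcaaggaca
OAS3: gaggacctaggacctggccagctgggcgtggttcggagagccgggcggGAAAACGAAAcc

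IFITM3, ISG15, IFI6, IFIT1 and BST2 hold 2 matches in the stretch shown and IFITM1, IFIH1 and OAS3 hold 1. In BST2 and ISG15 the matches overlap. STAT2 and SP100, both called higher, held no match in their promoters. The stretches were picked because they hold the element, and a match is a run of letters and not a measured binding site. Over all genes tested with a promoter, 23.9% of the 318 with an ISRE were called higher and 17.6% lower, against 21.7% and 23.2% of the 10260 without one, and the median log2 fold change was 0.037 with the element and -0.002 without it.

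The signalling genes upstream were taken from lists chosen by function, with earlier results of these data known. The shares called in these lists are therefore description and are not read as an excess over all genes. None of 21 interferon ligands, from IFNA1 and IFNB1 to IFNG and IFNL3, had a single count in any library, which allows up to 3 counts per gene and library. None of the ligand genes is annotated on extra contigs. Of 9 receptor and kinase genes 8 were tested, and 3 were called higher and none lower. The share called higher was 37.5% against 21.5% of all genes, and the share called in either direction was 37.5% against 43.0%. The genes called higher were IL10RB, a subunit of the type III interferon receptor (0.39 ± 0.05), IFNGR1, the ligand-binding chain for interferon gamma (0.29 ± 0.05), and IFNAR2 of the type I receptor (0.13 ± 0.03). IFNLR1, the other subunit of the type III receptor, was the gene not tested, with 1 count over the 12 libraries. The kinases JAK1 (0.00 ± 0.03), TYK2 (-0.08 ± 0.04) and JAK2 (-0.03 ± 0.03) were not called.

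Genes that sense nucleic acids and pass the signal on were called higher in 6 of 11 cases (54.5%, against 21.5% of all genes) and lower in 1 with both guides averaged. With sg2 alone 3 were called higher and with sg3 alone 4, where 14.5% and 21.9% of all genes were. In the average, the calls of TBK1, TICAM1, TLR9 and DHX58 had adjusted p between 0.0305 and 0.0449. TICAM1 was called with neither guide alone (adjusted p = 0.0953 with sg2 and 0.0627 with sg3). Alternative settings are not given for the genes of these lists. STING1, the adaptor for cytosolic DNA, averaged 60.0 ± 3.2 CPM with sg2, 66.2 ± 3.56 CPM with sg3 and 45.7 ± 2.06 CPM in control (SD, n = 4 each), a log2 fold change of 0.47 ± 0.04. MAVS, the adaptor on which IFIH1 acts, rose by 0.46 ± 0.06. TLR9 (1.12 ± 0.42) and DHX58 (0.51 ± 0.19) were called at totals of 113 and 292 counts over the 12 libraries, and neither was called with sg2 (0.89, adjusted p = 0.21 for TLR9 and 0.13, adjusted p = 0.719 for DHX58). MYD88, the adaptor of most toll-like receptors, fell (-0.17 ± 0.05).

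Inhibitors of interferon signalling were called higher in 5 of 9 cases (55.6%, against 21.5% of all genes) and in none lower with both guides averaged. With sg2 alone 4 were called higher and 1 lower, where 14.5% and 13.2% of all genes were. The lower call was PIAS4, which restrains STAT proteins (-0.14, adjusted p = 0.038). With sg3 alone 5 were called higher and 0 lower, where 21.9% and 21.4% of all genes were. The feedback inhibitors SOCS3 (0.76 ± 0.05) and SOCS1 (0.71 ± 0.14) changed most, ahead of the phosphatase PTPN6 (0.25 ± 0.03) and the repressor IRF2 (0.19 ± 0.05). SOCS3 averaged 171 ± 17.6 CPM with sg2, 191 ± 7.11 CPM with sg3 and 107 ± 3.33 CPM in control (SD, n = 4 each).

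Of 7 genes of MHC class I presentation tested, 4 were called higher (57.1%, against 21.5% of all genes) and none lower with both guides averaged, HLA-F (0.86 ± 0.14), HLA-B (0.53 ± 0.05), HLA-C (0.45 ± 0.04) and B2M (0.37 ± 0.08). With sg2 alone B2M, the shared light chain, was not called (0.18, adjusted p = 0.14), and TAP2, a subunit of the peptide transporter, was called lower (-1.16, adjusted p = 0.048) at a total of 120 counts. Reads of the HLA genes may be shared between them. Of the 7 genes tested, all but NLRC5 are annotated on extra contigs, TAP2 on 7 of them, so their counts carry the reservation given above. The same holds for HLA-E and TAP1, which were below the filter.

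A further 35 interferon-stimulated genes outside the 44 were looked up for comparison, and 31 were tested. Of these 14 were called higher (45.2%) and 5 lower (16.1%), against 21.5% and 21.4% of all genes, and the median log2 fold change was 0.15. The guanylate-binding protein GBP2 (0.95 ± 0.17), the helicase HELZ2 (0.60 ± 0.12), the ubiquitin ligase RNF213 (0.54 ± 0.09) and the lectin LGALS9 (0.37 ± 0.04) had the largest changes among those called higher. TRIM14 (-0.35 ± 0.06) and CMPK2 (-0.26 ± 0.04) were among those that fell. Lists of this kind hold few genes and were chosen with earlier results of these data known. No test of 1 list against another was made.

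**Figure D5:**
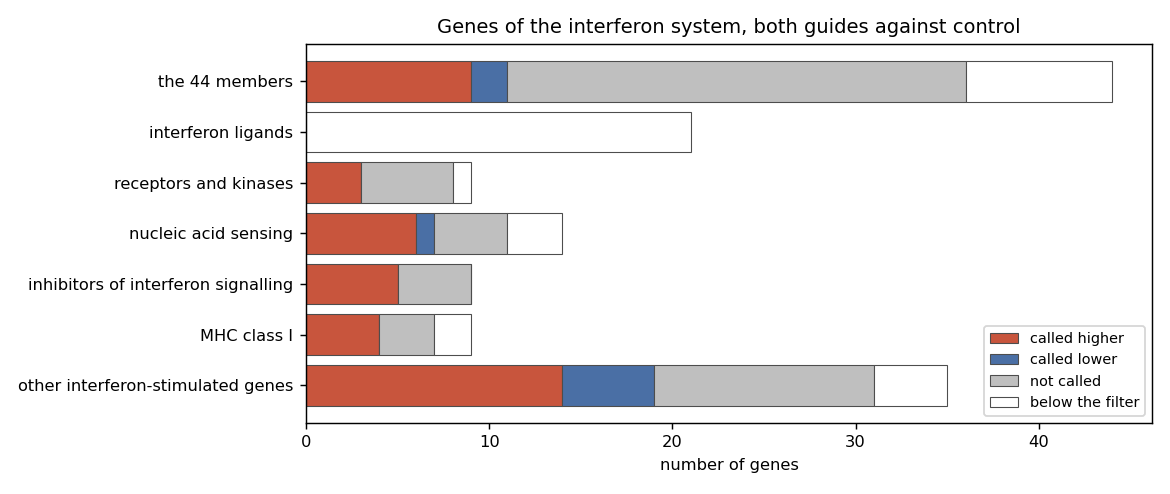
Number of genes (horizontal axis) called higher (red), called lower (blue), not called (grey) or below the filter on low values (white) with both guides averaged, for the 44 interferon-stimulated genes and for 6 lists of the interferon system. All 21 interferon ligands were below the filter, and 14 of the 31 tested interferon-stimulated genes outside the 44 were called higher.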

How the data were processed

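The deposited table holds raw counts of read pairs per gene, not normalized, which the authors made from paired-end, strand-specific reads with Trimmomatic 0.39, STAR 2.7.4a (hg38) and featureCounts 2.0.1. The stated counting options name no strand and no handling of reads with several matches. Of 38571 lines, 20 were broken, and the 6 genes they belonged to were left out. Total counts per library ranged from 10031809 to 78966125, so genes of low level are measured less precisely in the shallower libraries. Intervals of counting error were not formed, since replicates give the spread.

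The analysis used edgeR 4.0.16 under R 4.3.3. Genes with at least 0.5 CPM in 4 or more libraries were kept, libraries scaled by TMM, and 1 mean per group fitted to all 12 libraries by quasi-likelihood. A gene was called at an adjusted p below 0.05 (Benjamini-Hochberg over all 14271 genes). CPM are scaled by TMM, and means are given ± SD. Levels per kilobase use exon bases on the chromosome, without extra contigs. SEs were derived from the F statistic of each test, as the size of the log2 fold change over the root of F. Both guides were averaged with equal weight, each guide was set against control, and sg3 against sg2.

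The members and gene lists were chosen with earlier results of these data known. Values in every library are given for genes called with both guides averaged and with each guide alone, for the called falls, STAT2, IRF1, IRF7 and IRF9, and the 5 highest levels per length in control. ISG15, IFITM3 and the ISRE stretches were singled out after their values were seen. From each pathway list, up to 4 called genes of largest change are named, and others were added after their values were seen. Some genes of these lists are not reported here. Replicate libraries differed by more than sampling noise (reduced chi-square 1.71 to 12.4 over 18 pairs). Within each group they were alike in pairs. With sg3 these were libraries 1 and 2 (1.71) and 3 and 4 (3.98), against 6.27 to 12.4 across. With sg2 they were 1 and 2 (2.89) and 3 and 4 (2.46), against 3.79 to 7.02. In control they were 1 and 3 (2.09) and 2 and 4 (3.78), against 6.07 to 7.29. IFITM3 with sg3 split along the same pairs. So did STAT2 and PML with sg3, and TRIM25 and KDM4C with sg2, among others. How many genes did so was not counted. The origin of the pairs was not tested. Same-numbered libraries did not deviate together. Alternatives were RLE and upper-quartile scaling, filterByExpr (minimum count 10, minimum total 15), no filter beyond 1 count in all, DESeq2 1.42.0, limma-voom (limma 3.58.1), a replicate block, the compared groups alone, the fit without sg2 libraries 1 and 2, and each library left out. The fit was tested on simulated data.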

Additional observations from a re-analysis of the deposited data

Results flagged for a closer look

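In 6 of 111 groups of 4 libraries, 1 library stood far from the other 3 of its group for a gene, by the gap to its nearest neighbour relative to the range of the group. Chance gives about 1 such group in 20, or 5.6 of 111. IRF1 measured 32.4 CPM in sg3 library 4 and 28.3 to 28.6 CPM in the other 3. IRF7 measured 1.80 CPM in sg2 library 4 and 1.28 to 1.30 CPM in the others. IFIT1 measured 2.98 CPM in sg2 library 4, where the others had 2.19 to 2.23 CPM. IFIH1, a called gene, measured 29.4 CPM in sg2 library 3 and 25.4 to 25.9 CPM in the others, all above control. DTX3L was low in sg2 library 4, at 62.4 CPM, with 71.8 to 73.5 CPM in the others. ISG20 was high in sg2 library 1, at 1.66 CPM, with 0.797 to 0.939 CPM in the others.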

How the results depend on the processing

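With both guides averaged, the 11 called interferon-stimulated genes kept direction in all 20 alternatives each, and 8 of them kept the call in all; of 220 results 200 kept it, and the 20 losses were those of IFITM3 (10), PARP9 (9) and PML (1). Of 500 results for the 25 genes not called, 459 stayed so with the same sign, 16 were called and 25 turned sign without a call. The cause of these changes was not tested. The count lower in the average (2) was 1 with upper-quartile scaling, with no filter and with the replicate block, and 4 without sg2 libraries 1 and 2. The count higher with sg2 (8) was 5 with no filter, 4 with DESeq2 and 5 without sg2 libraries 1 and 2. Without those 2 libraries the median log2 fold change was 0.055 in the average, 0.041 with sg2 and 0.031 in sg3 against sg2, and with upper-quartile scaling it was 0.13 with sg3.

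With 1 library left out, the median ranged from 0.057 to 0.097 in the average, from 0.045 to 0.068 with sg2, from 0.065 to 0.13 with sg3 and from 0.019 to 0.053 in sg3 against sg2. The count higher ranged from 8 to 9 in the average, 2 to 7 with sg2 and 9 to 10 with sg3, and the count lower from 1 to 3, 0 to 1 and 1 to 3 in the same order. Sign turns of single genes were all near 0. Without sg2 libraries 1 and 2, ADAR stood at -0.01, OAS3 at -0.02 and DTX3L at -0.02. With upper-quartile scaling IFI35 stood at 0.0035 and ISG15 at 0.01, with limma-voom IFI35 at 0.02, ISG15 at 0.01 and IRF1 at -0.02, and with the replicate block ISG15 at 0.002. With 1 library left out, IRF1 ranged from -0.02 to 0.05, ADAR from -0.00036 to 0.04, ISG15 from -0.04 to 0.05, IFI35 from -0.05 to 0.02, and EIF2AK2 with sg2 from -0.08 to 0.00072.

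The replicate numbers did not pair the libraries: the correlation of deviations of same-numbered libraries lay between -0.147 and 0.166, with 1 of 12 above 0.1. Adding them as a block called 41.7% of all genes in the average, against 43.0% without it. A call lost in this fit, such as that of PARP9 (adjusted p = 0.0569), is counted as lost above and is not read as a smaller change. The fit of the compared groups alone has no counterpart for the average, which uses all 3 groups. Depth limits the genes below 2 CPM most, and counts on genes with extra contigs or shared exons limit what their levels mean.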
